A study of Homo sapiens with 10 samples.

Results

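Dexamethasone (Dex), a synthetic glucocorticoid, was given for 1 h to A549 cells that carried a control vector. A549 is a human lung adenocarcinoma line with epithelial character, and the vector expressed GFP alone. Cells received 1 ug of vector by transient transfection, were held for 48 h in medium with charcoal-stripped serum, and were then exposed to 100 nM Dex or to its solvent ethanol (EtOH). They were fixed in ethanol and the GFP-expressing cells were sorted before RNA extraction. The comparison used the 3 GFP Dex and 3 GFP EtOH libraries, 6 of the 10 in the series, matched by replicate number. The other 4 came from cells given EP300 fused to GFP and are not part of it. The deposited table held counts for 25538 genes, of which 16697 had enough counts to be tested and 8841 did not.

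Dex binds the glucocorticoid receptor (NR3C1), which sits in the cytoplasm with heat shock protein chaperones until ligand releases it into the nucleus. There it binds DNA as a dimer and raises the transcription of nearby genes, and it also lowers many genes driven by AP-1 and NF-kappaB, the transcription factors of the immediate early and inflammatory responses. At 1 h most changes in RNA come from genes that the receptor reaches without new protein being made first, and unstable transcripts can fall within that time. In lung epithelium glucocorticoids are known for restraining chemokine production and for raising sodium and water transport.

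The libraries of replicate number 2 stood apart from the others. Ribosomal RNA genes held 4.24% and 5.32% of their counts, against 0.493% to 0.813% in the other 4 libraries, and the mucin gene MUC5B lay at 4979 and 6904 CPM there against 850 to 1442 CPM. CPM are counts scaled to a common library total and to each library's edgeR TMM factor. Totals were close, from 12007632 to 13122367 counts, so that 3 counts correspond to 0.229 to 0.250 CPM. The labels name a pair of library kits without saying which was used where, so kit and replicate number cannot be told apart. The cells carried their epithelial markers in every library, with KRT8 at 7021 CPM or more and KRT18 at 2553 CPM or more, while EPCAM was low at 0.975 to 4.0 CPM. Of 15 markers of other cell types analysed, 6 were abundant enough to be tested and 0 were called. The leukocyte marker PTPRC and the haemoglobin gene HBA1 were at or under 0.0852 CPM in each library, and the 6 tested markers together summed to 33.4 to 49.2 CPM.

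The comparison was defined as paired by replicate number, and libraries of the same number resembled each other. The test therefore compared Dex with EtOH within each number (edgeR's quasi-likelihood test with the number as a block, Benjamini-Hochberg adjusted p below 0.05 over the 16697 genes). It called 277 genes (1.66%). Of these, 171 rose (1.02%) and 106 fell (0.635%). The changes were moderate in size. The median rise was 0.88 and the median fall -0.85 on the log2 scale, 71 rises and 28 falls were 2-fold or more, and 14 rises and 1 fall were 4-fold or more. Each of the 277 had the same sign in the 3 pairs, a pattern that 20.9% of all tested genes showed upwards and 18.8% downwards. The groups did not overlap for 117 of the 171 rises and 70 of the 106 falls. Over all tested genes, 4.17% were higher and 4.59% lower without overlap.

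The calls rest on the pairing and on which libraries are included. Without number 2 the same test called 1198 genes (7.18%), 275 of the 277 among them. Of the 1198, 752 rose (4.51%) and 446 fell (2.67%). Without number 1 it called 363 and without number 3 it called 248. Without the replicate block it called 7 genes (0.0419%), all higher: ERRFI1, RGS2, SLC19A2, SGK1, FGD4, SDPR and FAM43A. In all, 165 of the 277 (101 rises and 64 falls) were called whichever number was left out. Fitting all 10 libraries, with the EP300 ones included, called 0 genes with the replicate block and 0 without it (341 and 113 at an unadjusted p under 0.05). Where a gene named as called lost its call without a number, or its log2 fold change or fold moved by more than 1.5 times, that value is given. Each fit that leaves out a number rests on 2 pairs, so its p-values lean on a spread pooled over genes. More calls or smaller p-values in such a fit are therefore not stronger evidence. List counts without number 2, given below, stand beside the 4.51% and 2.67% of that fit.

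**Figure D1:**
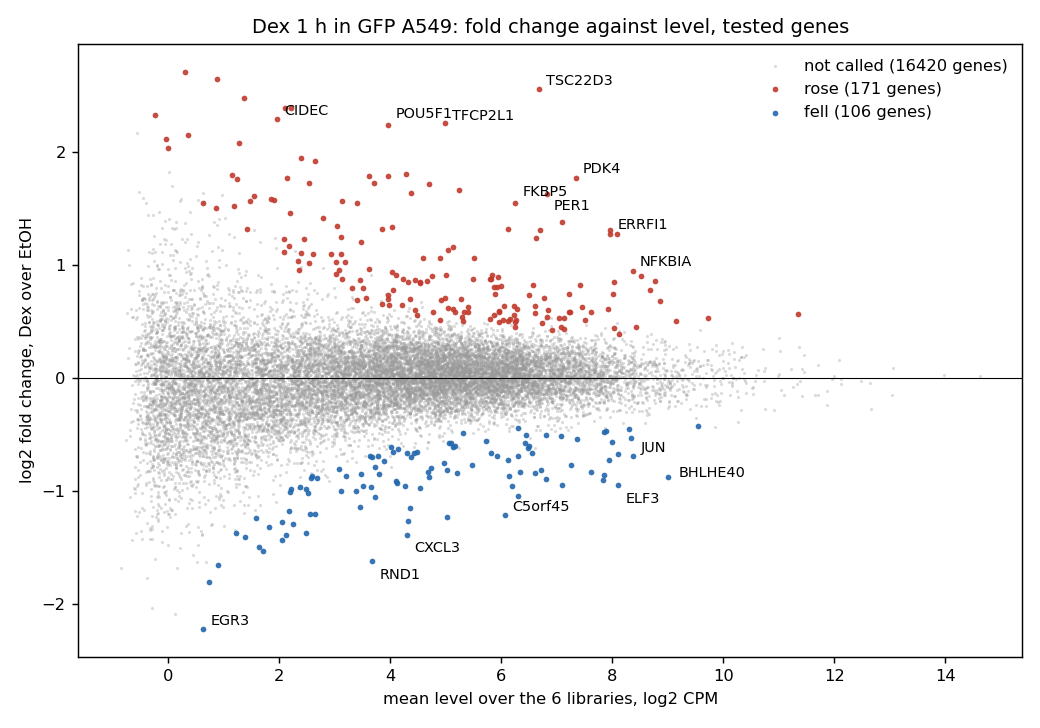
Log2 fold change of Dex over EtOH (vertical) against the mean level over the 6 libraries in log2 CPM (horizontal) for the 16697 tested genes. The 171 genes that rose are red, the 106 that fell are blue, and grey points were not called; TSC22D3 and TFCP2L1 rise far above genes of like level, and the falls reach -2.22 at EGR3.

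Classical targets of the receptor were among the rises. TSC22D3 (GILZ), a leucine zipper protein that binds and restrains NF-kappaB and AP-1, lay at 17.4, 69.4 and 17.9 CPM in EtOH replicates 1, 2 and 3 and at 169, 197 and 148 CPM in Dex. All Dex libraries were above all EtOH libraries, but the EtOH library of number 2 was well above the other EtOH libraries. Its log2 fold change was 2.56 ± 0.26 (SE, n = 3 pairs; edgeR adjusted p = 0.000237), and without number 2 it was 3.16. FKBP5, a co-chaperone that lowers the receptor's affinity for hormone, went from 29.8, 48.3 and 37.7 CPM to 103, 144 and 92.7 CPM, again with no overlap. It rose by 1.55 ± 0.11 (adjusted p = 2.8e-05) and was the only called gene among 23 tested members of a list of the receptor and its chaperones, whose median log2 fold change was 0.18 against 0.00 for all tested genes. Without number 2, 5 of the 23 rose and the median was 0.09. In pairs 1, 2 and 3 the list's median was 0.04, 0.24 and 0.17. Medians of like size were seen in the housekeeping (0.12), S phase (0.17) and G2 and M phase (0.21) lists, while that of the heat shock list was -0.01. The receptor gene itself, NR3C1, lay at 281, 197 and 269 CPM in EtOH and 257, 176 and 237 CPM in Dex. These ranges overlap, and its log2 fold change of -0.16 ± 0.09 did not pass (adjusted p = 0.419).

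Some rises were nearly identical in each pair. ERRFI1 (MIG6), an inhibitor of the EGF receptor kinase, stood at 160, 144 and 135 CPM in EtOH and at 372, 356 and 333 CPM in Dex. The groups were far apart relative to their spread, and the log2 fold change was 1.27 ± 0.09 (edgeR adjusted p = 2.8e-05). SGK1, a kinase that keeps sodium channels at the cell surface, rose by 1.24 ± 0.10 from 59.7, 55.9 and 59.9 CPM to 149, 128 and 139 CPM. SLC19A2, a thiamine transporter, differed by 1.78, 1.79 and 1.73 in the 3 pairs, and RGS2, which shortens signalling through Gq proteins, by 1.86, 1.86 and 1.64. FGD4, an exchange factor for Cdc42, and SDPR (cavin-2), a coat protein of caveolae, rose by 1.66 ± 0.12 and 1.31 ± 0.10. Number 2 did not stand apart from the other pairs for these genes.

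**Figure D2:**
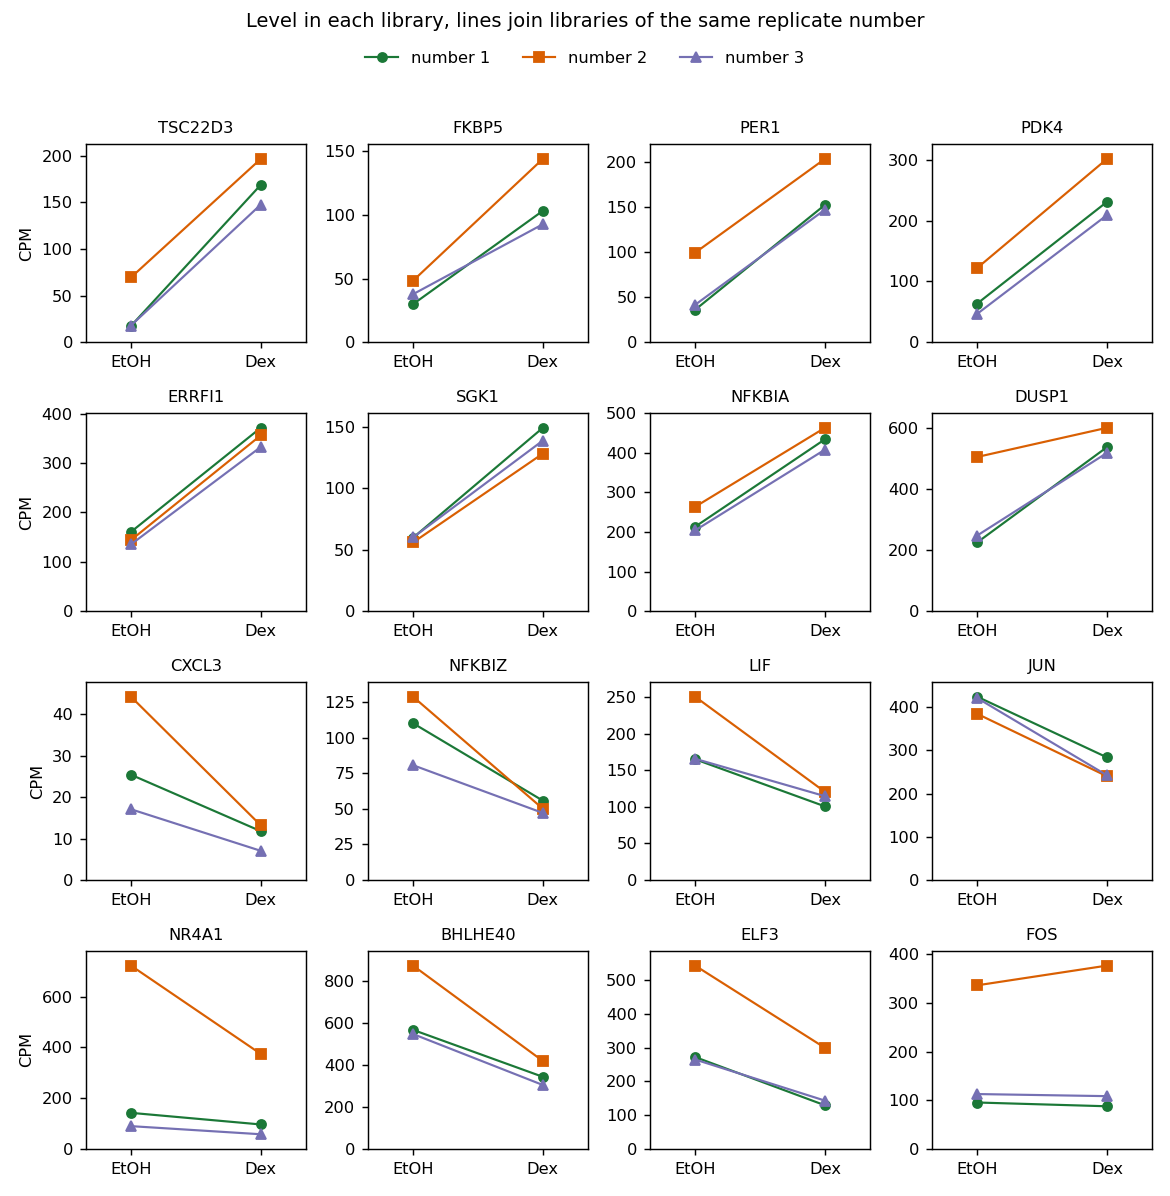
Level in CPM (vertical, from 0) of 16 genes in each of the 6 libraries; lines join EtOH and Dex libraries of the same replicate number. The lines for ERRFI1 and SGK1 lie close together, those for TSC22D3, PER1, NR4A1 and ELF3 lie higher for number 2 in both groups, and FOS shows no common direction.

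Genes that inhibit inflammatory signalling mostly rose where they were called. Of 24 tested members of that list, 9 rose and 1 fell, with a median log2 fold change of 0.25, against the 1.02% of all tested genes that rose and the 0.635% that fell. Without number 2, 13 of 23 rose and 2 fell. NFKBIA (IkappaBalpha), which holds NF-kappaB in the cytoplasm, went from 213, 264 and 204 CPM to 434, 463 and 408 CPM. Levels about doubled in each pair without overlap, for a log2 fold change of 0.95 ± 0.09 (edgeR adjusted p = 0.000201). ZFP36 (tristetraprolin), which speeds the decay of cytokine mRNAs, rose by 1.31 ± 0.16 from 92.2, 268 and 103 CPM to 306, 428 and 300 CPM. DUSP1, a phosphatase that switches off p38 and JNK, went from 225, 505 and 248 CPM to 537, 601 and 518 CPM. Its differences were 1.26, 0.25 and 1.07 in the 3 pairs, so the pair that began at the higher level differed least (log2 fold change 0.86 ± 0.15, adjusted p = 0.012). An alternative test, DESeq2 with the same block, did not call DUSP1.

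The remaining members act at several steps of the same signalling. BIRC3 and ZC3H12A, a ubiquitin ligase of the TNF receptor complex and an RNase that cleaves cytokine mRNAs, rose by 0.85 ± 0.10 and 0.74 ± 0.12. SOCS1, an inhibitor of JAK kinases, rose by 0.91 ± 0.19 (edgeR adjusted p = 0.0265), and it overlaps RMI2, which had more counts. IRAK3, a kinase-dead brake on Toll-like and IL-1 receptor signalling, was near the limit of counting in EtOH at 0.244 to 0.324 CPM and lay at 1.79, 1.49 and 1.00 CPM in Dex. It rose with an adjusted p = 0.0278, which was 0.0736 without number 1, and its library of lowest count held 3 reads. TNFAIP3 (A20), which removes ubiquitin chains from the NF-kappaB pathway, went from 154, 106 and 93.0 CPM to 263, 129 and 150 CPM. The groups overlapped, and its rise of 0.58 ± 0.11 (adjusted p = 0.0163) did not hold without number 1 (adjusted p = 0.0702) or number 3 (adjusted p = 0.127).

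The same family held falls. NFKBIZ, a nuclear IkappaB protein needed for secondary NF-kappaB targets, went from 110, 129 and 80.6 CPM to 55.7, 50.0 and 47.1 CPM. Every Dex library was below every EtOH library, and the log2 fold change was -1.04 ± 0.12 (edgeR adjusted p = 0.000593). Its relative NFKBID fell by 0.88 ± 0.18 (adjusted p = 0.0316, and 0.0782 without number 3). Among 22 tested subunits and kinases of the NF-kappaB pathway, 0 rose and 1 fell: MAP3K14 (NIK), the kinase of its noncanonical arm, at -0.60 ± 0.11. None of 29 tested cytokine receptors and their signalling genes was called by edgeR with the block, and the median was 0.09. Without number 2 the NF-kappaB list had 2 falls, and the cytokine receptor list had 8 rises and 1 fall.

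Cytokines and chemokines went down where they were called. Of 28 tested members, 0 rose and 5 fell (against 1.02% and 0.635% of all tested genes), with a median of -0.11. The falls described below are not all members of that list. Without number 2 the list had 3 rises and 6 falls, and its median was 0.03. CXCL3, a neutrophil chemokine, went from 25.4, 44.2 and 17.1 CPM to 11.8, 13.2 and 7.03 CPM without overlap. It fell by 1.39 ± 0.15 (edgeR adjusted p = 0.000543). CXCL1, its close paralog, fell by 0.81 ± 0.14 with overlapping groups, and since these genes are nearly identical in sequence, reads may be split between them. LIF and CLCF1, cytokines that signal through gp130, fell by 0.77 ± 0.11 and 0.77 ± 0.12. GDF15, a stress-induced TGF-beta family member, fell by 0.81 ± 0.11. PTGS2 (COX-2), the inducible enzyme of prostaglandin synthesis, fell by 0.51 ± 0.10 (adjusted p = 0.0205), a call lost without number 1 (adjusted p = 0.0702) or number 3 (adjusted p = 0.286).

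Other members of that list did not pass with all 3 numbers. CXCL2 went from 61.6, 201 and 72.0 CPM to 85.5, 108 and 75.8 CPM, up in numbers 1 and 3 and down in number 2 (log2 fold change -0.13 ± 0.19, edgeR adjusted p = 0.791; without number 2 it was 0.27 with an adjusted p = 0.0264). IL8 was lower in each pair, by 0.51, 0.37 and 0.47, with an adjusted p = 0.0775 (0.000313 without number 2). IL6 was low throughout, at 0.618 to 3.73 CPM, and had a log2 fold change of -0.70 ± 0.31 (adjusted p = 0.31). CCL20 had a log2 fold change of 1.41 ± 0.32, higher in each Dex library than in any EtOH library (adjusted p = 0.0513, and 0.0181 without number 2 and 0.0254 without number 3).

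Promoter windows are shown for 5 genes of NF-kappaB signalling, because 2 of them rose and 3 fell while each holds a match to the NF-kappaB site. Windows of 2 DUSP phosphatase genes and 2 clock genes are also shown. These sets were picked because their genes moved in opposite directions while sharing a motif, so they do not show how a motif is spread over rises and falls. The sequences are from RefSeq on GRCh38.p14, whereas the counts were made on GRCh37. Capitals mark the motif, and positions count from the annotated start, negative before it. NFKBIA (chr14:35404740-35404899, minus strand, match at -81) and TNFAIP3 (chr6:137867109-137867268, plus strand, matches at -67 and -55) rose.
NFKBIA: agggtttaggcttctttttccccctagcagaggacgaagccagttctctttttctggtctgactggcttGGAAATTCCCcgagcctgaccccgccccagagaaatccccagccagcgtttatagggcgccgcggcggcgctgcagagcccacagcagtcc
TNFAIP3: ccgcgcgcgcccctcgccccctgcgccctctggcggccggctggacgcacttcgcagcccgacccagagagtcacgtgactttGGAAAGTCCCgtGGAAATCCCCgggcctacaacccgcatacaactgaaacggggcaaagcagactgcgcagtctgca
CXCL1 (chr4:73869243-73869402, plus strand) and CXCL3 (chr4:74038680-74038839, minus strand), each with overlapping matches at -79 and -78, and NFKBIZ (chr3:101827740-101827899, plus strand, match at -223) fell.
CXCL1: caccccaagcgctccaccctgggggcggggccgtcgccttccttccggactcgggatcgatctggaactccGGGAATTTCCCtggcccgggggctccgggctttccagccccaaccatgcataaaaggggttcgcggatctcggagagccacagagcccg
CXCL3: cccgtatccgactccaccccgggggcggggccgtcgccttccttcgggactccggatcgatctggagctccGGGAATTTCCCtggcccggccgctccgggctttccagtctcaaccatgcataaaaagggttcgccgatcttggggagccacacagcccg
NFKBIZ: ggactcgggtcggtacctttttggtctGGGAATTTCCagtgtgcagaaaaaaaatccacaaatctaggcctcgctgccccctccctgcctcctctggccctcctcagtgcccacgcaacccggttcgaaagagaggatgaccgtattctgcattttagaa
The CXCL1 and CXCL3 stretches are identical at 138 of 160 positions (86.2%). The match was permissive, and 37.6% of the 16843 windows of tested genes hold one on either strand. The promoters of DUSP1 (chr5:172771186-172771345, minus strand, match at -125), which rose, and DUSP8 (chr11:1572262-1572421, minus strand, matches at -118 and -74), which fell, share the cAMP response element TGACGTCA, in capitals. It is present in 2.72% of windows of tested genes.
DUSP1: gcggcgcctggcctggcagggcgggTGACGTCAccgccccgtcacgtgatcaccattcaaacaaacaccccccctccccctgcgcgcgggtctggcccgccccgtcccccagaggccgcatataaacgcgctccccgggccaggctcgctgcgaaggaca
DUSP8: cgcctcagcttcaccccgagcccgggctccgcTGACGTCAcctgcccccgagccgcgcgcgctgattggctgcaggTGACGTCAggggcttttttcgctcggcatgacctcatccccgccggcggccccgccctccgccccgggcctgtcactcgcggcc
The E-box CACGTG, in 9.08% of those windows, is in capitals in the promoters of PER1 (chr17:8152445-8152604, minus strand, match at -173), which rose, and BHLHE40 (chr3:4979187-4979346, plus strand, match at -245), which fell.
PER1: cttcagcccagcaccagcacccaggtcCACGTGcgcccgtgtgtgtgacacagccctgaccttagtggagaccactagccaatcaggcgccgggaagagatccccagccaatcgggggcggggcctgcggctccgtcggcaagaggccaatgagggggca
BHLHE40: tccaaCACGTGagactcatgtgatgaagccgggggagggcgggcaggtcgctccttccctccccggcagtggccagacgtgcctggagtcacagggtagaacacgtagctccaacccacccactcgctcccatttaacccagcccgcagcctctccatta
A palindromic glucocorticoid receptor motif was in 0 of the 189 windows of genes that rose and in 0 of the 16843 windows of tested genes. The hexamer TGTTCT, one arm of it, was in 12.7% and 10.1% of them, on either strand. Among windows of rises, falls and tested genes, the NF-kappaB site was in 32.3%, 44.0% and 37.6%. The E-box was in 9.52%, 4.76% and 9.08%, and the cAMP response element in 0.529%, 1.19% and 2.72%. An AP-1 site, TGAGTCA or TGACTCA, was in 6.35%, 9.52% and 3.76%. Only 69.6% of the rises and 61.3% of the falls had a window, so these shares are given without a comparison. The palindrome was sought as an exact match in short windows at the start site, and only 1 of all 35116 windows held it. Its count of 0 among the rises therefore cannot tell whether receptor sites lie near these genes.

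AP-1 genes fell where they were called. Of 16 tested members of the FOS, JUN, ATF and MAF families, 0 rose and 4 fell, with a median of -0.23. The shares of all tested genes were 1.02% and 0.635%. Without number 2, 5 fell and the median was -0.11. JUN, the core subunit of AP-1, went from 425, 385 and 421 CPM to 284, 240 and 242 CPM, every Dex library below every EtOH library. It fell by 0.69 ± 0.09 (edgeR adjusted p = 0.00167). FOSB, a FOS family subunit, went from 63.3, 274 and 104 CPM to 29.6, 132 and 71.4 CPM. Dex was lower in each pair while the groups overlapped (log2 fold change -0.89 ± 0.12). JUNB and MAFK, a JUN family subunit and a small MAF protein, fell by 0.82 ± 0.15 and 0.66 ± 0.10. FOS itself lay at 95.4, 336 and 113 CPM in EtOH and 87.7, 377 and 109 CPM in Dex. Its differences of -0.12, 0.16 and -0.06 had no common sign, and its log2 fold change was -0.00 ± 0.10 (adjusted p = 0.997).

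Immediate early genes outside AP-1 moved both ways, with falls more numerous. Of 33 tested members, 11 fell and 4 rose (against 0.635% and 1.02% of all tested genes), with a median of -0.32. Without number 2, 13 fell and 8 rose, and the median was -0.14. The 3 NR4A orphan nuclear receptor genes fell together. NR4A1 went from 142, 722 and 89.7 CPM to 96.3, 374 and 57.7 CPM, and fell by 0.72 ± 0.10 (edgeR adjusted p = 0.00278). NR4A2 fell by 1.15 ± 0.15 and NR4A3 by 1.05 ± 0.22. The NR4A3 difference was -1.75 in number 2, and without that number its log2 fold change was -0.58 (adjusted p = 0.0462). The NR4A1 level in number 2 was several times that of the other libraries in both groups. Without the block its log2 fold change was -0.85 and not called, and without the block and without GFP EtOH replicate 2 it was 0.60.

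IER genes, short transcripts induced by growth factors and stress, fell as well. IER5 went from 269, 228 and 258 CPM to 157, 138 and 131 CPM without overlap, and fell by 0.83 ± 0.10 (edgeR adjusted p = 0.000607). IER2 and IER3 fell by 0.95 ± 0.15 and 0.86 ± 0.12, with pair 2 the largest for both. IER5L fell by 0.69 ± 0.12. EGR3, a zinc finger factor of the EGR family, had the deepest fall, from 1.30, 5.02 and 1.30 CPM to 0.244, 1.18 and 0.232 CPM. At these levels the lowest library held 3 reads, and the log2 fold change was -2.22 ± 0.38 (adjusted p = 0.0096). EGR1 fell by 0.45 ± 0.10 (adjusted p = 0.042, and 0.272 without number 3), and in the fit without the block and without GFP EtOH replicate 2 its log2 fold change was 0.22. The Polo-like kinase genes PLK2 and PLK3 fell by 0.52 ± 0.10 and 0.79 ± 0.16, and both calls were lost without number 3 (adjusted p = 0.274 and 0.0986). The 4 rises were TIPARP, an ADP-ribosyltransferase, at 1.28 ± 0.11, ARC at 0.92 ± 0.17, the GTPase RHOB at 0.82 ± 0.12 and GADD45B, a stress sensor, at 0.56 ± 0.11. ARC lost its call without number 3 (adjusted p = 0.0623), and GADD45B without number 1 (adjusted p = 0.109) or number 3 (adjusted p = 0.0704).

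**Figure D3:**
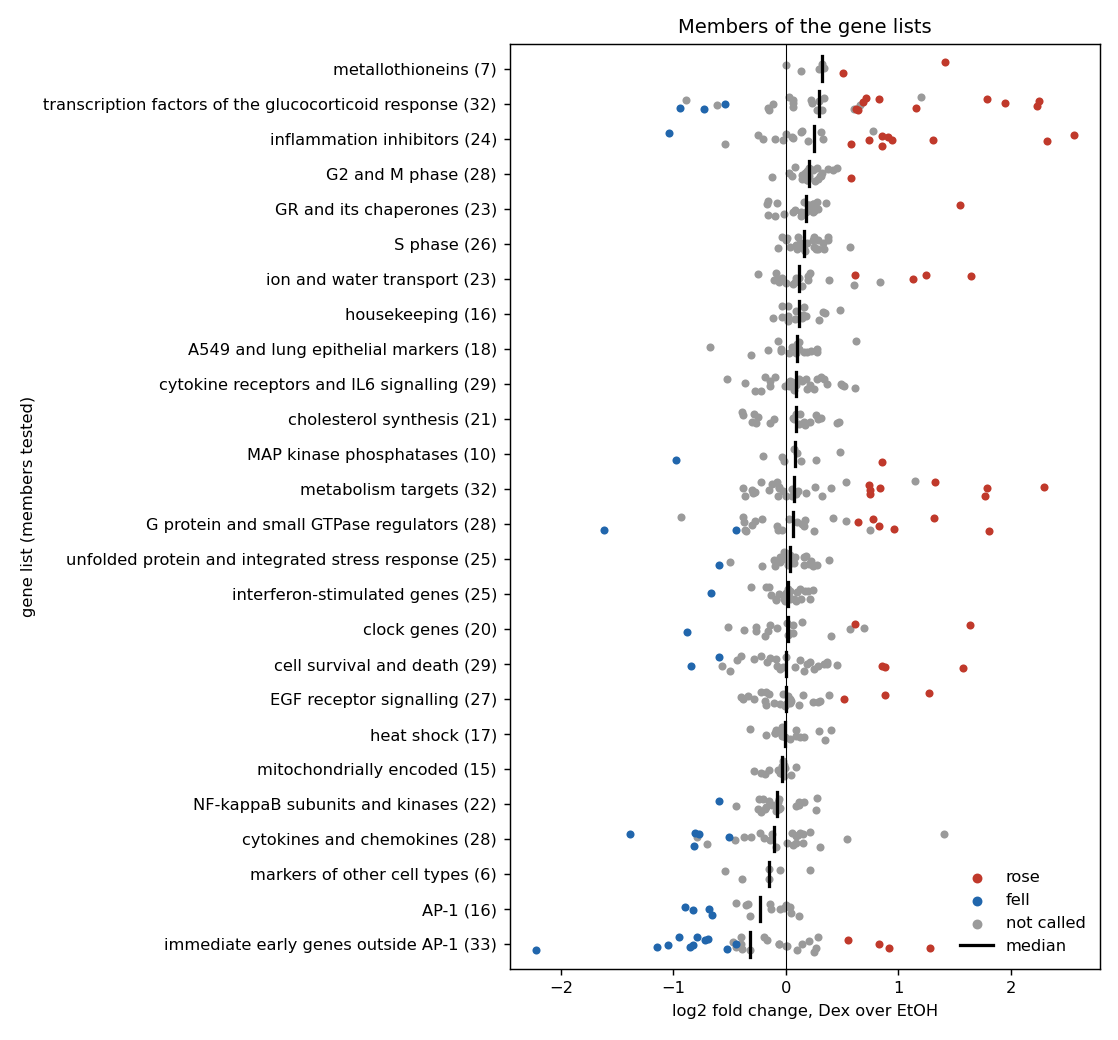
Log2 fold change (horizontal) of each tested member of 26 gene lists (vertical, number of tested members in brackets); red rose, blue fell, grey was not called, and the black bar is the list's median. Rises spread to 2.56 in the list of inflammation inhibitors, falls gather in the AP-1 and immediate early lists, and housekeeping, heat shock and mitochondrially encoded genes have no called member.

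Transcription factors known from glucocorticoid responses were mostly higher where called. Of 32 tested, 10 rose and 3 fell (against 1.02% and 0.635% of all tested genes), with a median of 0.29. Without number 2, 16 rose and 4 fell. TFCP2L1, a grainyhead-family factor of epithelia, went from 6.97, 18.5 and 8.37 CPM to 39.5, 74.5 and 41.7 CPM, with no overlap. It rose by 2.25 ± 0.14 (edgeR adjusted p = 1.27e-05), the largest of its list. KLF9, a feedback repressor induced by the receptor in many tissues, went from 3.0, 9.28 and 4.79 CPM to 14.9, 26.0 and 15.8 CPM and rose by 1.79 ± 0.18. SNAI2, a repressor of epithelial genes, rose by 1.95 ± 0.27, from 2.51, 1.02 and 2.60 CPM to 12.3, 1.65 and 11.4 CPM. Its Dex level in number 2 was below every other Dex library and also below the EtOH levels of 2.51 and 2.60 CPM, so the groups overlapped. That pair differed by only 0.61. BCL6, a transcriptional repressor, rose by 1.16 ± 0.16, and CEBPD, a leucine zipper factor of the acute phase, by 0.82 ± 0.11.

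Smaller rises in that list were those of ZNF281 (0.71 ± 0.11), KLF6 (0.68 ± 0.10), CITED2, a partner of EP300 and CBP (0.64 ± 0.10), and CEBPB (0.63 ± 0.12). KLF6 lost its call without number 3 (edgeR adjusted p = 0.0635) and CEBPB without number 1 (adjusted p = 0.0821). ELF3, an ETS factor of epithelia, went from 272, 542 and 264 CPM to 129, 299 and 143 CPM. It fell by 0.94 ± 0.09 (adjusted p = 0.000213), by 1.07, 0.86 and 0.89 in the 3 pairs. HES1, a Notch target, fell by 0.73 ± 0.11, and KLF10, a TGF-beta-induced repressor, by 0.54 ± 0.12 (adjusted p = 0.0396, and 0.236 without number 3).

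POU5F1, a pluripotency factor gene, rose by 2.24 ± 0.19 (edgeR adjusted p = 5.06e-05) from 5.27, 9.88 and 2.11 CPM to 23.6, 36.9 and 16.2 CPM. It sits in a row of 4 called genes on chromosome 6 that all rose: CCHCR1 by 0.92 ± 0.12, TCF19 by 1.07 ± 0.15, POU5F1, and the noncoding PSORS1C3 by 1.92 ± 0.22. Their annotations overlap in part, the strand setting of the counting is not given in the sources used here, and POU5F1 has near-identical pseudogene copies, so the share of each gene in these reads is uncertain. In all, 59 called genes lay within 100 kb of another called gene, in 26 clusters. Of these clusters, 16 held rises only, 8 falls only and 2 both. Other clusters of rises were GLRX with ELL2, an oxidoreductase and an elongation factor (0.88 ± 0.11 and 1.06 ± 0.12), and CDH16 with RRAD and CES4A (CES4A lost its call without number 1, edgeR adjusted p = 0.102). SLC22A5, a carnitine transporter, and IRF1, an interferon response factor, lie near each other and moved apart, at 1.38 ± 0.13 and -0.67 ± 0.10.

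Clock genes held 2 rises and 1 fall among 20 tested (against 1.02% and 0.635% of all tested genes), with a median of 0.02. Without number 2, 4 rose and 1 fell. PER1, a repressor of the circadian feedback loop, went from 35.9, 99.2 and 41.4 CPM to 152, 203 and 147 CPM. The groups did not overlap, and the rise was 2.08, 1.03 and 1.82 in the 3 pairs (log2 fold change 1.63 ± 0.16, edgeR adjusted p = 0.000213). NR1D2 (REV-ERBbeta), a nuclear receptor repressor, rose by 0.62 ± 0.10. BHLHE40 (DEC1), which competes at the E-boxes of clock genes, went from 568.8, 875.9 and 548.9 CPM to 344, 420 and 305 CPM without overlap, and fell by 0.88 ± 0.10. PER2 was higher in each pair, at 0.40 ± 0.10, and did not pass (adjusted p = 0.0922; without number 2 adjusted p = 1.87e-07).

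**Figure D4:**
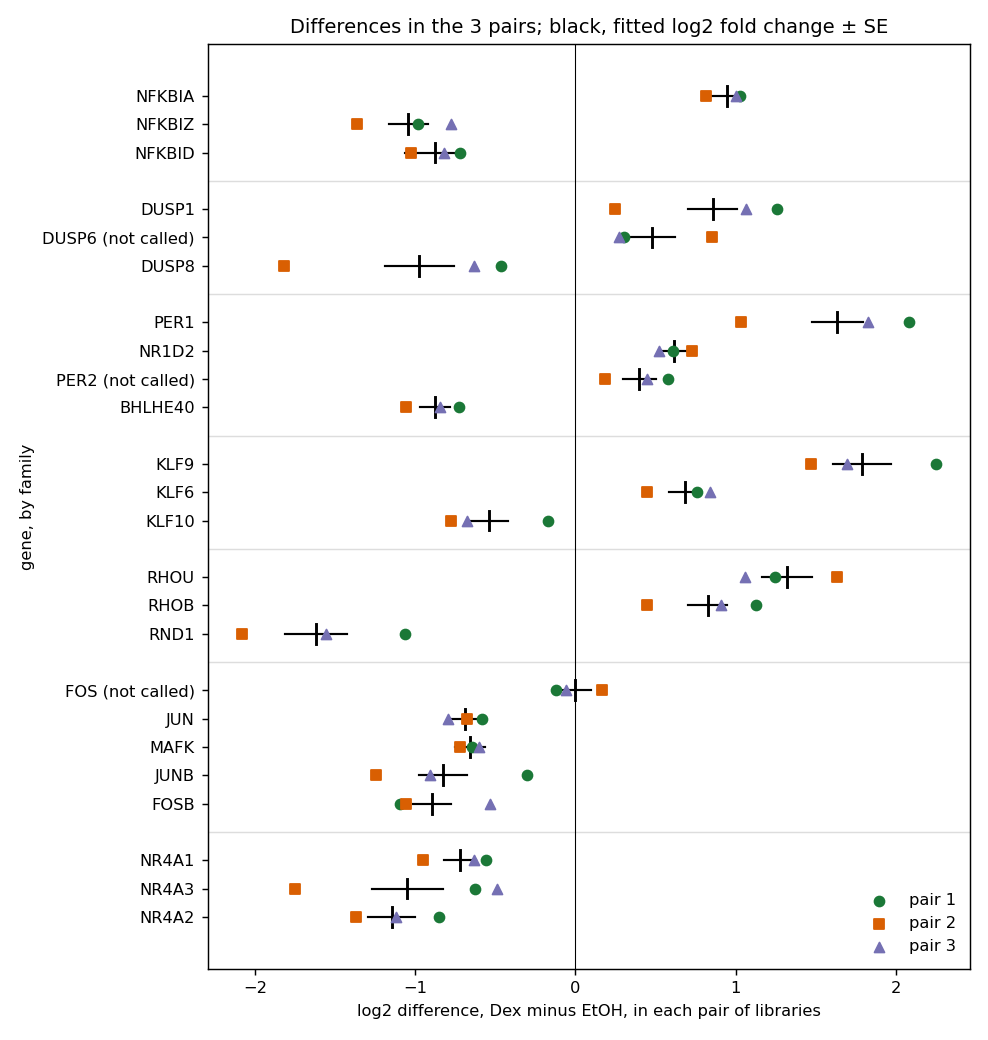
Log2 difference between Dex and EtOH (horizontal) in each of the 3 pairs of libraries for 24 genes grouped by family or, for clock genes, by list (vertical); the black bar is the fitted log2 fold change with its SE. NFKBIA and NFKBIZ, DUSP1 and DUSP8, PER1 and BHLHE40, KLF9 and KLF10, and RHOU and RND1 lie on opposite sides of 0 in the 3 pairs, and pair 2 is often the most extreme.

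Opposite moves inside a family were also seen among phosphatases and small GTPases. DUSP8, a phosphatase of JNK and p38 like DUSP1, went from 28.5, 43.0 and 21.0 CPM to 20.6, 12.1 and 13.5 CPM. It fell by 0.97 ± 0.21 (edgeR adjusted p = 0.0417), with a difference of -1.82 in number 2, and without that number the log2 fold change was -0.54. DESeq2 with the replicate block called neither DUSP1 nor DUSP8. The ERK phosphatase gene DUSP6 did not pass (0.48 ± 0.14, adjusted p = 0.137). Of 28 tested regulators of G proteins and small GTPases, 6 rose and 2 fell, with a median of 0.06. The shares of all tested genes were 1.02% and 0.635%. Without number 2, 8 rose and 4 fell. RHOU, a Cdc42-like GTPase, rose by 1.32 ± 0.16, RRAD by 0.78 ± 0.15 and the Cdc42 effector CDC42EP3 by 0.64 ± 0.09. RRAD lost its call without number 3 (adjusted p = 0.117). RND1, a small GTPase, went from 14.3, 34.0 and 10.3 CPM to 6.74, 7.92 and 3.40 CPM without overlap, and fell by 1.62 ± 0.20. ARHGEF2 (GEF-H1), a guanine nucleotide exchange factor, fell by 0.44 ± 0.10 (adjusted p = 0.041), a call lost without number 1 (adjusted p = 0.0929) or number 3 (adjusted p = 0.321).

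Among 32 tested metabolic targets, 8 rose and 0 fell (against 1.02% and 0.635% of all tested genes), with a median of 0.07. Without number 2, 9 rose and 4 fell. PDK4, which switches pyruvate away from oxidation, went from 63.5, 122 and 46.6 CPM to 231, 301 and 209 CPM. The groups did not overlap, and the log2 fold change was 1.77 ± 0.14 (edgeR adjusted p = 3.61e-05). ANGPTL4, a secreted inhibitor of lipoprotein lipase, rose by 1.32 ± 0.15. CIDEC, a lipid droplet protein, rose by 2.30 ± 0.31 from 0.649, 2.90 and 0.650 CPM to 6.09, 8.94 and 4.17 CPM, and without number 2 its log2 fold change was 2.95. ACSL1, which activates long-chain fatty acids, and IRS2, an adaptor of the insulin receptor, rose by 0.84 ± 0.13 and 0.75 ± 0.13. The arrestin-like ARRDC2 and the membrane protein gene STOM rose by 0.74 ± 0.10 and 0.75 ± 0.11.

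Of 23 tested genes of ion and water transport, 4 rose and 0 fell (against 1.02% and 0.635% of all tested genes). Without number 2, 6 of 22 rose and 1 fell. SCNN1A, the alpha subunit of the epithelial sodium channel, went from 4.38, 22.2 and 6.17 CPM to 20.1, 49.1 and 21.9 CPM, with the high number 2 EtOH library overlapping Dex. It rose by 1.64 ± 0.18 (edgeR adjusted p = 0.000543), and it overlaps LTBR, which had more counts. The sulfate transporter SLC26A2 rose by 1.13 ± 0.18. In the EGF receptor signalling list, 3 of 27 rose and 0 fell, against the same shares. The rises were ERRFI1, SPRY1 (0.88 ± 0.17) and SPRY2 (0.52 ± 0.12). Without number 2, 3 rose and 2 fell. SPRY1 lost its call without number 3 (adjusted p = 0.14), and SPRY2 without number 1 (adjusted p = 0.123) or number 3 (adjusted p = 0.204).

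Among 29 tested genes of cell survival and death, 3 rose and 2 fell (against 1.02% and 0.635% of all tested genes). Without number 2, 6 rose and 6 fell. CDKN1C (p57), an inhibitor of cyclin-dependent kinases, rose by 1.57 ± 0.28, and DDIT4 (REDD1), an inhibitor of mTORC1, by 0.88 ± 0.12, next to BIRC3. BBC3 (PUMA), which triggers apoptosis at mitochondria, went from 47.0, 52.8 and 40.3 CPM to 37.2, 20.2 and 22.7 CPM, and fell by 0.84 ± 0.17 (edgeR adjusted p = 0.0226). DDIT3 (CHOP) fell by 0.60 ± 0.11, a call lost without number 3 (adjusted p = 0.141), and overlaps MARS, which had more counts. MT1X and MT2A, metal-binding metallothioneins that glucocorticoids induce, rose by 1.41 ± 0.19 and 0.51 ± 0.11. MT2A lost its call without number 1 (adjusted p = 0.0819) or number 3 (adjusted p = 0.424), and metallothionein genes are similar enough that reads may be split.

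Further falls were outside these lists. C5orf45 fell by 1.21 ± 0.11 (edgeR adjusted p = 0.000143) from 90.4, 112 and 80.6 CPM to 39.8, 40.9 and 40.7 CPM, with no overlap. It is overlapped by SQSTM1 and TBC1D9B, which had more counts. NUAK2, a kinase related to AMPK, fell by 0.94 ± 0.13, and CACNG8, a subunit of glutamate receptor channels in neurons, by 0.90 ± 0.10. SMAD7 and SMAD6, inhibitors of TGF-beta and BMP signalling, fell by 0.61 ± 0.13 and 0.57 ± 0.12. SMAD7 lost its call without number 3 (adjusted p = 0.0636), and the log2 fold change of SMAD6 was -0.37 without number 2. IRF1 was the only called gene among 25 tested interferon-stimulated genes, whose median was 0.02. Without number 2, 2 of these rose and 2 fell.

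Other lists held few or no calls. Heat shock (17 tested), cholesterol synthesis (21), mitochondrially encoded (15), housekeeping (16) and A549 marker genes (18) had 0 called members in edgeR with the block. Without number 2 these lists had 1 rise and 1 fall, 3 and 2, 0 and 2, 4 and 0, and 1 and 0. S phase genes had 0 calls of 26, and G2 and M phase genes 1 rise of 28, CDK1 at 0.58 ± 0.13 (adjusted p = 0.0483). Small positive values were nonetheless common in both lists. The S phase median was 0.17 with 24 of 26 members above 0, and the G2 and M phase median 0.21 with 27 of 28. Over all 16697 tested genes, 8470 were above 0. Without number 2, 6 S phase and 12 G2 and M phase genes rose, beside the 4.51% of all genes tested in that fit. Of the unfolded protein and integrated stress response list, DDIT3 was the called member among 25. Without number 2 that list had 3 falls.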

How the data were processed

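RNA-seq libraries were grouped and numbered from the labels (3 GFP EtOH and 3 GFP Dex used here; the 4 EP300 libraries entered only the alternatives that fit all 10). The authors deposited raw counts, 1 whole number for each gene in each library, as the file headers state. Tools named in the submitters' processing notes are STAR 2.4.2a, HTSeq 0.6.1p1, cutadapt and DESeq2 1.10.1, with the build GRCh37. Neither annotation nor strand setting is given in the sources used here. Values of genes that overlap others, run antisense or have close copies are therefore uncertain. A block of 10 deposited columns of normalized counts was not used. The authors' thresholds (adjusted p 0.05, absolute log2 fold change 0.58, largest count 30) were tried as an alternative.

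From the counts, edgeR 4.0.16 in R 4.3.3 was run on the 6 libraries (TMM factors, the default expression filter, treatment and replicate number as terms, quasi-likelihood test, two-sided, Benjamini-Hochberg adjustment over 16697 genes, threshold 0.05). CPM use TMM-scaled library sizes, and differences within pairs use log2 CPM with a prior count of 2. The number was a block because the comparison was defined as paired by it. Libraries of the same number also deviated together from their group means (r = 0.434, 0.668 and 0.506, against -0.567 to 0.254 between different numbers). Deviations from a group mean cancel out within the group, so a positive r within numbers by itself lowers r between different numbers. Within a group, libraries 1 and 3 correlated at 0.985 and 0.986 across genes and those with number 2 at 0.958 to 0.969. The labels do not say that replicates were separate cultures. The p-values then measure only how these libraries spread, which may be technical. In 5 simulated draws of 16697 genes, each with 200 changed, the blocked test called 961 genes, 59 of them unchanged (6.14%), and recovered 82.4% of 2-fold and 98.0% of 4-fold changes. The draws used the spread fitted to these libraries and gave each changed gene the same change in every pair. Real differences varied between pairs, as for DUSP1, so these rates need not hold for the real calls.

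The members, the 26 gene lists and the tests were chosen with earlier results of these data known. Genes were named by a rule (largest rises and falls, smallest p, up to 6 members a list, and a set of known targets). Of the named genes 29 fell outside it and were chosen after their values were seen. A few genes under the rule are not reported here. Gene spans and neighbours came from GENCODE 29 by gene identifier, and promoter sequences from RefSeq by symbol, which matched 11622 of the tested genes (69.6%). Alternatives were DESeq2 1.42.0, limma-voom in limma 3.58.1 with and without quality weights, robust estimation, other scalings and filters, ribosomal and mitochondrial genes removed, other designs and each number or library left out.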

Additional observations from a re-analysis of the deposited data

How the results depend on the processing

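The count of calls moved by over 1.5 times with the block, the libraries included, quality weights and the filter. The fit with the replicate block called 277 genes (171 rose, 106 fell). No replicate block gave 7 (7 and 0, with 572 genes at an unadjusted p under 0.05), and all 10 libraries gave 0 with the replicate block and 0 without it by edgeR (341 and 113 at an unadjusted p under 0.05). Voom quality weights gave 805 (476 and 329), of which 757 had that sign in the 3 pairs, and no filter gave 536 (315 and 221), of which 524 had it. Leaving out each number in turn gave 248 to 1198 calls, 146 to 752 rises, 102 to 446 falls and 227 to 936 with that sign in the 3 pairs. Leaving out each library without the block gave 0 to 19 calls, 0 to 18 rises and 0 to 1 falls, the 19 without GFP EtOH replicate 2. DESeq2 called 244, limma-voom 268, robust edgeR 275, RLE factors 279, library sizes alone 258, the stricter filter 207 and the authors' thresholds 230. DESeq2 called 228 of the 277 and not the other 49, which included DUSP1 and DUSP8. The cause of these differences was not tested. Of the 189 promoter windows of the 119 rises with one, 0% held the palindrome and 12.7% its TGTTCT arm (0% and 10.1% of the windows of tested genes). As an exact match the palindrome was in 1 of all 35116 windows, too few for a comparison. FOS, at -0.00 in the report, was 0.074 with no replicate block, 0.066 and 0.0015 in all 10 libraries without and with the replicate block, 0.0094 by DESeq2, 0.0083 by limma-voom, 0.00965 with RLE factors and 0.0068 with no filter. With numbers left out it ran from -0.089 to 0.056, and with libraries left out from -0.89 to 0.88 (0.42 without GFP Dex replicate 1, 0.36 without GFP Dex replicate 3). CXCL2 was 0.054 with quality weights. It ran from -0.42 to 0.27 with numbers left out and from -0.60 to 0.43 with libraries left out. EGR1 and NR4A1, which fell with the block, were 0.22 and 0.60 in the unblocked fit without GFP EtOH replicate 2. No other named gene changed sign. Depth limits the genes near 3 counts, where counting error alone is large.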

Other observations

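Genes that fell were shorter than genes that rose. Among protein-coding genes with a span in GENCODE 29, the median span was 10.3 kb for falls, 26.9 kb for rises and 33.4 kb for all tested genes, with a median of 4, 6.5 and 8 exons. Noncoding RNAs made up 19.8% of falls, 7.02% of rises and 11.2% of all tested genes. Falls were also more abundant: 29 of the 106 (27.4%) lay at 100 CPM or more in EtOH, against 29 of the 171 rises (17.0%) and 12.6% of all tested genes. These are descriptions of the called genes, and their part in what was called was not tested.

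The EtOH library of number 2 was the highest of the 3 EtOH libraries for 58.5% of rises and 73.6% of falls, against 42.2% of all tested genes. It exceeded the mean of the other EtOH libraries by a median of 0.26 and 0.41 on the log2 scale for rises and falls, and by -0.00 for all genes. The size of the difference was smallest in pair 2 for 73 of the 171 rises (42.7%) and for 20 of the 106 falls (18.9%). Summed over the rises, levels went from 11513, 11722 and 10839 CPM in EtOH to 19780, 18695 and 17947 CPM in Dex. Summed over the falls, they went from 8195, 11902 and 8293 CPM to 5549, 6500 and 5373 CPM.

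Some called genes at low level had large folds. EDN3, an endothelin, went from 0.162, 1.28 and 0.162 CPM to 2.76, 5.18 and 1.47 CPM, with as few as 2 counts in a library (edgeR log2 fold change 2.65 ± 0.42, and 3.61 without number 2). CDH16, a kidney cadherin, went from 0.568, 3.83 and 0.487 CPM to 6.58, 12.7 and 3.63 CPM (2.39 ± 0.31, and 3.23 without number 2), and ALPP, placental alkaline phosphatase, from 0.892, 3.15 and 0.406 CPM to 6.90, 8.71 and 5.80 CPM (2.396 ± 0.344, and 3.28 without number 2). Of the 277 called genes, 133 overlap another gene in the table and 57 are overlapped by one with more counts (24 rises and 33 falls), where reads could be assigned to either gene.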
